A study of Homo sapiens with 6 samples.

Results

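The lysosome is the acidic compartment in which cells break down proteins, glycans and lipids. The genes examined here encode its enzymes, proteins of its membrane, the proton pump that acidifies it, and 2 transcription factors that switch such genes on. They were chosen by name and function, with earlier results of these data known, as 47 rows of the 58735 genes listed in the expression table. They comprised 8 proteases with CTSA, a carboxypeptidase, among them, 8 glycosidases, 7 enzymes or carriers of lipid breakdown, 7 membrane proteins, the factors TFEB and TFE3, and 15 subunits of the vacuolar proton pump, or V-ATPase. All 47 had a row, and 46 were tested. CLN3, a membrane protein lost in juvenile Batten disease, lay below the filter on low values.

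The samples were 6 RNA-seq libraries of HCT116, a human colorectal carcinoma line of epithelial origin that the labels give as wild type. Cells of the CTR group received a control transfection, for which the study's methods give neither sequence nor dose, and cells of the miR-8485 group received mimics of that microRNA at 50 nM. Each group had 3 libraries, described as independent biological replicates, and the methods place collection 48 h after transfection. A mimic is a synthetic short RNA that acts in the cell as the mature microRNA would, so the comparison asks how an added microRNA changes the transcriptome of 1 cell line.

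Lysosomal enzymes are made as inactive precursors, tagged with mannose 6-phosphate in the Golgi and carried by receptors to late endosomes, where acid releases and activates them. The acid comes from the V-ATPase, a rotary pump with a cytosolic V1 sector that splits ATP and a V0 sector in the membrane that moves protons. TFEB and TFE3 bind an E-box with the core CACGTG, found in the promoters of many lysosomal genes, and are held in the cytosol by mTORC1 when nutrients are plentiful.

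The values were fragments scaled by gene length and library total (FPKM), on 17473874 to 18480047 fragments per library. A group difference is given as a log2 fold change of FPKM + 0.1, miR-8485 minus CTR, with its standard error (SE) from limma, a linear model fitted to 12349 genes with a mean of at least 1 FPKM. A gene is called higher or lower at a Benjamini-Hochberg adjusted p under 0.05. The first principal component, with 62.7% of the variance, separated the groups. Of 5 epithelial markers, KRT8, KRT18 and KRT19 were lower in miR-8485, EPCAM and CDH1 overlapped, and their summed level was 2598 to 2822 FPKM in CTR and 1724 to 1808 in miR-8485. Of 9 markers of leukocytes, fibroblasts and endothelium, CD3E and DCN were at 0 in every library, 8 had a mean under 1 FPKM, and the sum, mostly COL1A1, was 4.69 to 5.26 FPKM in CTR and 6.77 to 6.96 in miR-8485. What these shifts contribute to the results was not tested. In bulk libraries, fewer cells with a transcript and less of it per cell cannot be told apart.

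The promoters of some of the lysosomal genes hold the core that TFEB and TFE3 bind. RefSeq promoters of GRCh38.p14, 250 bases before to 50 after a start site, were matched for 35 of the 47 genes, and those of 11 genes (31.4%) held CACGTG, which is its own reverse complement. Among 8765 tested genes with a promoter, 1149 (13.1%) held it. The longer word TCACGTG, searched on both strands and always holding CACGTG, was found for 10 of the 35 genes (28.6%) and for 7.42% of the tested genes. The stretches below are shown because the same core stands before genes that were called lower (CTSD, NEU1, ATP6V0D1), higher (GAA, ATP6V1G1) and in neither direction (LAMP1). They read 5′ to 3′ on the strand of the gene and end before the start site, with the core in capitals.
CTSD, chr11:1763949-1763994, minus strand: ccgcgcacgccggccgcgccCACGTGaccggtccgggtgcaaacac
NEU1, chr6:31862922-31862967, minus strand: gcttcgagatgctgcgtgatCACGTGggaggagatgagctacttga
ATP6V0D1, chr16:67481191-67481236, minus strand: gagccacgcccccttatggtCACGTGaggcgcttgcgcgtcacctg
GAA, chr17:80101485-80101575, plus strand: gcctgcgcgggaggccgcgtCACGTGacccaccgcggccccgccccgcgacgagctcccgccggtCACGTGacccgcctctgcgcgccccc
ATP6V1G1, chr9:114587691-114587736, plus strand: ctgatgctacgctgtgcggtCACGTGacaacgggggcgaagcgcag
LAMP1, chr13:113297027-113297236, plus strand: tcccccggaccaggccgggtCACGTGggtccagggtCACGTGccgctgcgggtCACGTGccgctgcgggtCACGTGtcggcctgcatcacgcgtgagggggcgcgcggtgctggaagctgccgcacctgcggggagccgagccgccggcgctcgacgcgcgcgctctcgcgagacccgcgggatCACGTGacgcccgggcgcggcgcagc

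The core lay 47 bases before the start site of CTSD, 126 before that of NEU1, 59 before that of ATP6V0D1 and 58 before that of ATP6V1G1. GAA had copies at 76 and 31 bases, and LAMP1 had 5 copies before its start site, the farthest at 192 bases. The other genes with the core were CTSA, CD63, MCOLN1, ATP6V0B and CLN3. Among the 10 tested genes with the core, 2 were called higher, 4 lower and 4 in neither direction, with a median log2 fold change of -0.07. Among the 24 with a promoter but without it, 8 were called higher, 8 lower and 8 in neither direction, with a median of -0.05. Over all tested genes, with or without a promoter, 59.6% were called, 29.1% higher and 30.5% lower. A match describes the letters in the window and does not show that a factor binds there.

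The other sequence of interest is TGTGTGT, the 7 letters that pair with bases 2 to 8 of the mimic, its seed. It was searched on the transcribed strand, in the 3′ untranslated region of the transcript that GENCODE release 44 marks as canonical, with overlapping copies counted. It occurred in 8 of the 46 tested lysosomal genes (17.4%) and in 3086 of 10675 tested genes with such a region (28.9%). The median region measured 754 bases in the lysosomal genes and 1287 bases in all tested genes. ATP6V0D1 had the most, 13 copies in 509 bases, of which some overlap. LAMP2 had 5, ATP6V1C1 had 2, and ATP6AP2, ATP6V0A1, ATP6V1A, PSAP and TFEB had 1 each. The longest run of ATP6V0D1, that of LAMP2 and the single copies of PSAP and TFEB are shown, with the runs in capitals and their positions on GRCh38.
ATP6V0D1, chr16:67438475-67438495, minus strand: gcactcttTGTGTGTGTGTGTGTGTGTGTg
LAMP2, chrX:120429176-120429188, minus strand: aaaataatTGTGTGTGTGTGTatatatat
PSAP, chr10:71817382-71817388, minus strand: tttctactTGTGTGTctggggga
TFEB, chr6:41684505-41684511, minus strand: ggctgcacTGTGTGTgaagtagc

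Of the 8 genes that held the word, 4 were called lower (ATP6V0D1, LAMP2, ATP6V1C1 and PSAP), 1 was called higher (TFEB) and 3 were called in neither direction. Over all tested genes, 30.5% were called lower. The median log2 fold change was -0.21 in the 8 lysosomal genes with the word and -0.05 in those without it, and -0.16 and 0.02 in all tested genes with and without it. CTSD, which fell most, did not hold it in this region, nor did 13 others of the 18 genes called lower. Only this word and 1 region per gene were searched, and whether the mimic acts on any of these transcripts was not tested.

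Among the 46 tested lysosomal genes, 13 were called higher, 18 lower and 15 in neither direction. The called genes made up 67.4%, where 59.6% of all tested genes were called, 29.1% higher and 30.5% lower, so the share was near the background. The 3 miR-8485 libraries lay wholly above the 3 CTR libraries for 13 lysosomal genes and wholly below for 22, together 35 of 46, where 66.5% of all tested genes did not overlap. The median log2 fold change was -0.06, against -0.0041 over all tested genes, and the range was -3.20 to 0.67. CTSD, ATP6V1C1, LAMP2 and GUSB had a log2 fold change of 1 or more in size, all 4 downward. Of the 12349 tested genes, 1095 had a change of this size. The higher genes made up 41.9% of the calls on the FPKM as deposited, against 48.8% over all tested genes. After rescaling to TPM, which moved the median of all tested genes to -0.12, 7 were called higher and 22 lower. The higher genes then made up 24.1% of the calls, against 35.6% over all tested genes.

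**Figure D1:**
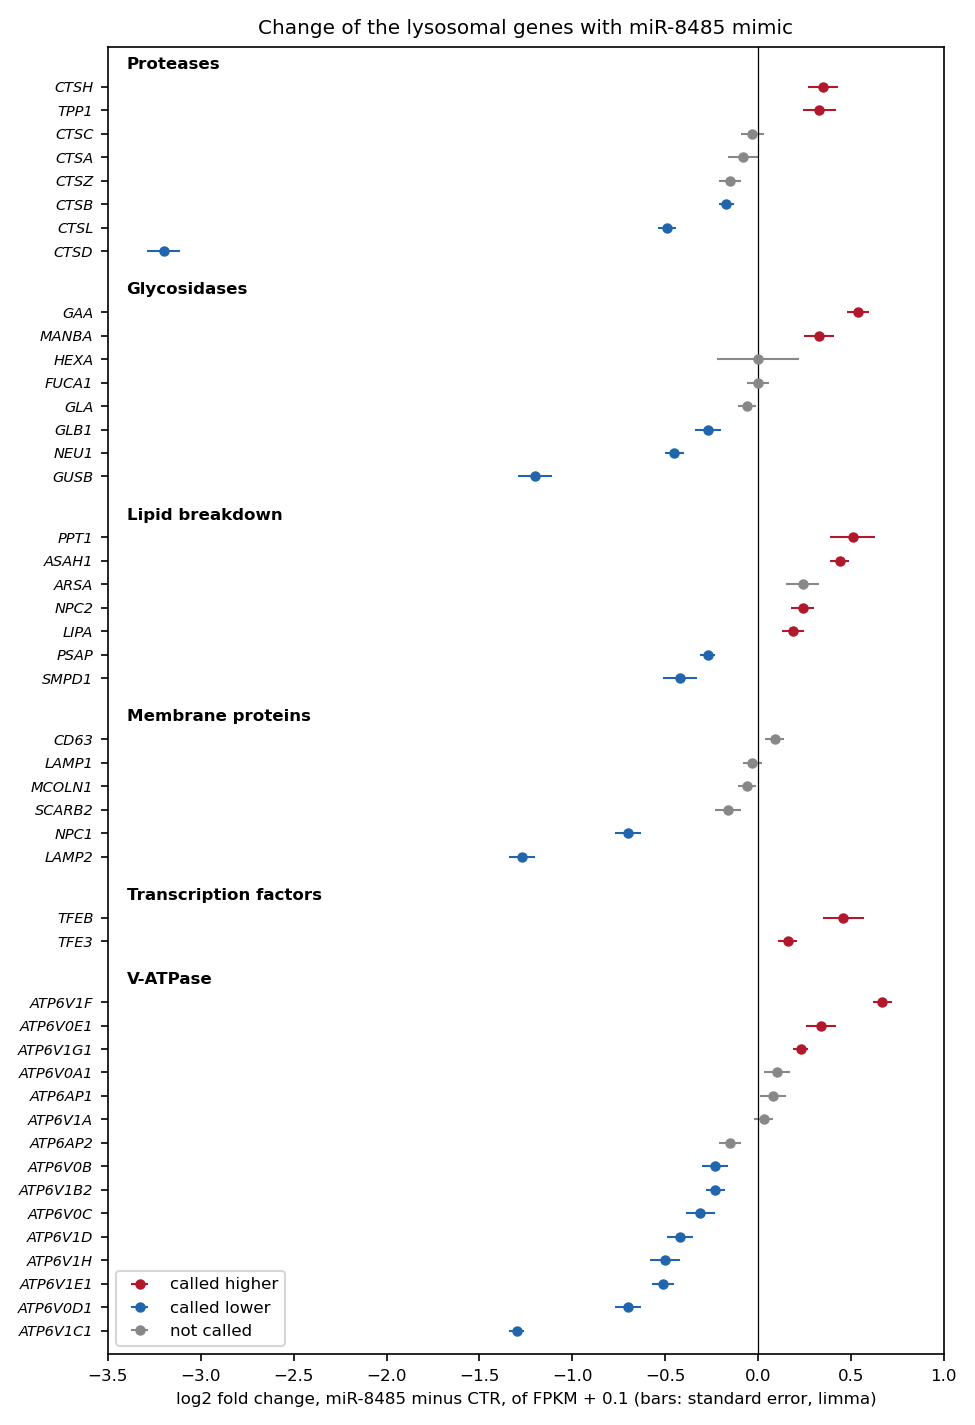
Log2 fold change (miR-8485 minus CTR, log2 of FPKM + 0.1) of the 46 tested lysosomal genes by functional group, with points for the limma estimate from 3 libraries a group and bars for its standard error. Red points are called higher (13 genes), blue points called lower (18) and grey points not called (15). CTSD stands alone at -3.20, and no gene rose by more than 0.67.

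Among the proteases, CTSD stood apart. It encodes cathepsin D, the main aspartic protease of the lysosome, and lies on the minus strand of chromosome 11 (1752752 to 1764573, hg38). Its level was 36.7, 36.1 and 37.5 FPKM in the CTR libraries and 3.69, 3.54 and 4.59 FPKM in the miR-8485 libraries. All 3 miR-8485 libraries were thus far below every CTR library, and the mean level was 9.34 times as high in CTR. The log2 fold change was -3.20 (SE 0.09, adjusted p = 1.5e-06), and only 9 of the 12349 tested genes fell more. The fall rested on 2041 to 2120 fragments per CTR library and 200.0 to 273 per miR-8485 library. In GENCODE release 44, 48.0% of the exon bases of CTSD are shared with 3 other genes, whose summed mean level was 2.48 FPKM in CTR and 0.883 in miR-8485. The counting could have lost fragments in such stretches, which was not tested.

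CTSL, the cysteine protease cathepsin L, fell with it. Its level was 33.5, 30.3 and 29.8 FPKM in CTR and 22.4, 21.9 and 22.1 FPKM in miR-8485, without overlap, a log2 fold change of -0.49 (SE 0.05, adjusted p = 2.1e-04). CTSB, cathepsin B, was also called lower, with a mean of 44.1 ± 1.82 FPKM (SD, n = 3) in CTR and 39.2 ± 0.635 (SD, n = 3) in miR-8485 and a log2 fold change of -0.17 (SE 0.04, adjusted p = 0.014). In 3 of 19 alternatives, which are other filters, scalings, thresholds and tests or a library left out, CTSB was not called. These were the trend against gene length removed, an adjusted p under 0.01 and miR-8485 replicate 3 left out (adjusted p = 0.0502). Its adjusted p had extremes of 0.00261 and 0.0994 among the 19.

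The rises among the proteases were smaller. CTSH, an aminopeptidase, was at 2.83, 2.76 and 2.44 FPKM in CTR and at 3.52, 3.4 and 3.39 FPKM in miR-8485, for a log2 fold change of 0.35 (SE 0.08, adjusted p = 0.00774). TPP1, which removes tripeptides from the ends of proteins and is mutated in a childhood form of Batten disease, was at 6.97, 8.19 and 8.43 FPKM in CTR and at 9.41, 10.6 and 9.67 FPKM in miR-8485. Its log2 fold change was 0.33 (SE 0.09, adjusted p = 0.0116), and the groups of both genes did not overlap. CTSZ, the protease with the highest level, was at 74.5, 64.6 and 71.8 FPKM in CTR and at 64.4, 61.4 and 63.9 FPKM in miR-8485. The groups of CTSZ nearly touched, and its log2 fold change of -0.15 (SE 0.06, adjusted p = 0.0613) did not pass the threshold. It passed in 7 of 19 alternatives, among them rescaling to TPM, the trend against gene length removed and CTR replicate 2 left out (-0.21, adjusted p = 0.0117). The extremes of the adjusted p for CTSZ were 0.00125 and 0.169. In GENCODE release 44, 31.7% of its exon bases face another gene on the opposite strand. CTSA, which also protects other lysosomal enzymes, and CTSC, which activates serine proteases, had log2 fold changes of -0.08 and -0.03 with overlapping groups. In all, 2 of the 8 proteases were called higher and 3 lower, with a median of -0.11. The called share of 62.5% was near the 59.6% of all tested genes.

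The glycosidases, which trim sugar chains from glycogen, glycoproteins and glycolipids, split in the same manner, with 2 of 8 called higher, 3 lower and a median log2 fold change of -0.03. Their called share was likewise 62.5%, near the 59.6% of all tested genes. GUSB, beta-glucuronidase, lies on chromosome 7 (65960684 to 65982314, hg38) and fell most. Its level was 11.2, 9.6 and 10.6 FPKM in CTR and 4.91, 4.07 and 4.59 FPKM in miR-8485. Every miR-8485 library had less than any CTR library, with a log2 fold change of -1.20 (SE 0.09, adjusted p = 3.1e-05). The table lists 11 pseudogenes of GUSB, with which the counting could have shared fragments, and their summed mean level was 1.21 FPKM in CTR and 1.63 in miR-8485. NEU1, the sialidase that removes terminal sialic acid, was at 15.3, 14.3 and 14.3 FPKM in CTR and at 10.7, 10.8 and 10.5 FPKM in miR-8485. The NEU1 groups were well apart, with a log2 fold change of -0.45 (SE 0.05, adjusted p = 1.8e-04). GLB1, the beta-galactosidase that works in a complex with NEU1 and CTSA, fell from 11 ± 0.92 to 9.08 ± 0.14 FPKM (SD, n = 3 each), a log2 fold change of -0.27 (SE 0.07, adjusted p = 0.0101). Of the 3 genes of that complex, NEU1 and GLB1 were thus called lower and CTSA was not called.

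GAA, the acid alpha-glucosidase that breaks down glycogen and is deficient in Pompe disease, was the glycosidase with the largest rise. It was at 25.6, 26.9 and 27.7 FPKM in CTR and at 38.9, 36.7 and 41 FPKM in miR-8485. The lowest miR-8485 library thus exceeded the highest CTR library, with a log2 fold change of 0.54 (SE 0.06, adjusted p = 1.4e-04). MANBA, beta-mannosidase, rose from 2.97, 2.53 and 2.55 FPKM to 3.37, 3.38 and 3.43 FPKM, a log2 fold change of 0.33 (SE 0.08, adjusted p = 0.0115) that was not called after rescaling to TPM (0.22, adjusted p = 0.0902, with extremes of 4.7e-04 and 0.0902 among the alternatives). FUCA1, the alpha-fucosidase and the glycosidase with the highest level, was at 44.7, 40 and 43.3 FPKM in CTR and at 40.9, 45.7 and 41.2 FPKM in miR-8485, with overlapping groups and a mean of 42.6 FPKM in both. GLA, the alpha-galactosidase deficient in Fabry disease, had a log2 fold change of -0.06. HEXA, a subunit of the hexosaminidase deficient in Tay-Sachs disease, was the tested lysosomal gene with the lowest level, at 0.826 to 1.28 FPKM over the 6 libraries, and its SE of 0.22 was the widest of the lysosomal genes.

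**Figure D2:**
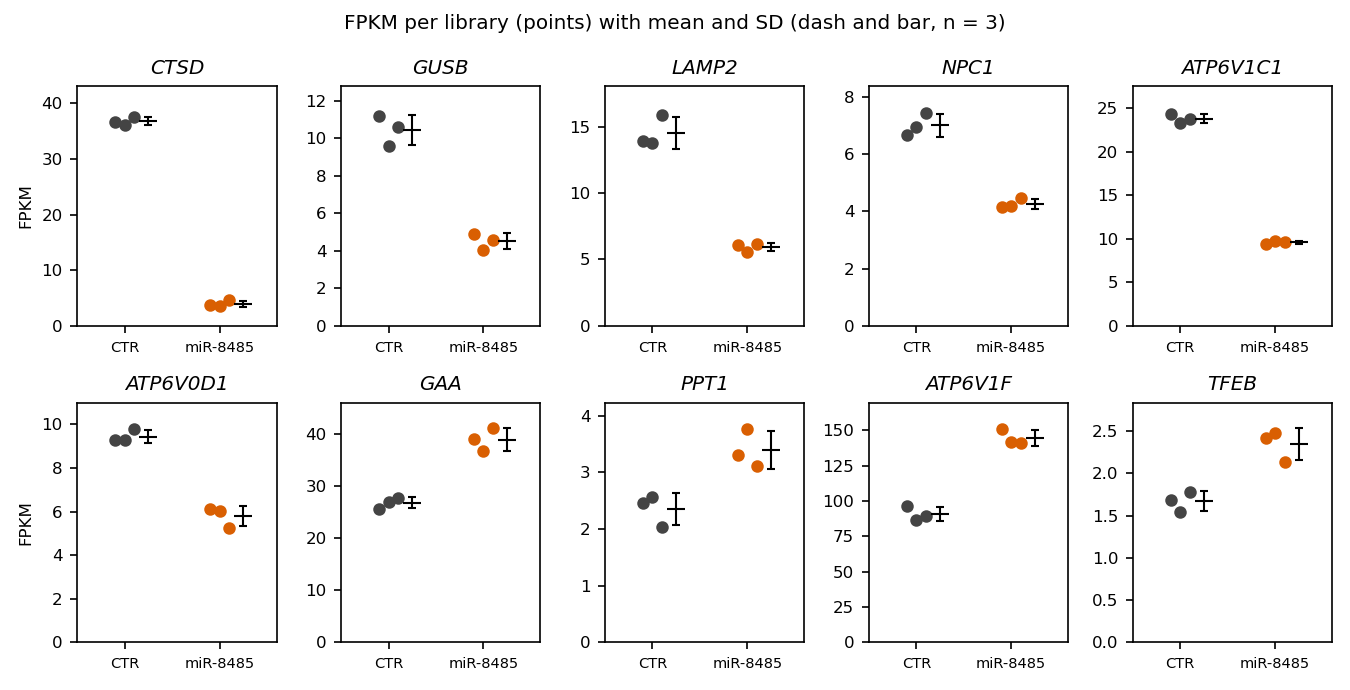
FPKM of 10 lysosomal genes in each of the 6 libraries, with 1 panel per gene and an axis that starts at 0. Points are libraries, and the dash and bar beside them are the mean and SD of 3. CTSD fell from a mean of 36.8 to 3.94 FPKM, and GAA rose from 26.7 to 38.9 FPKM. The 10 genes were picked from those with called changes, so their groups lie apart by that choice. Of all tested genes, 66.5% did not overlap.

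Among the 7 genes of lipid breakdown, 4 were called higher and 2 lower, with a median log2 fold change of 0.24. Of all tested genes, 29.1% were called higher and 30.5% lower. PPT1, which removes palmitate from proteins, was at 2.46, 2.57 and 2.03 FPKM in CTR and at 3.3, 3.76 and 3.12 FPKM in miR-8485, for a log2 fold change of 0.51 (SE 0.12, adjusted p = 0.00676). ASAH1, the acid ceramidase, was at 5.12, 5 and 5.26 FPKM in CTR and at 6.8, 7.18 and 6.93 FPKM in miR-8485, for a log2 fold change of 0.44 (SE 0.05, adjusted p = 3.5e-04). Neither gene had overlapping groups. NPC2, the soluble carrier that hands cholesterol to the membrane protein NPC1, rose by a log2 fold change of 0.24 (SE 0.06, adjusted p = 0.0114), and LIPA, the lipase that splits cholesteryl esters, by 0.19 (SE 0.06, adjusted p = 0.0257). Neither NPC2 nor LIPA was called after rescaling to TPM (0.12 and 0.072, adjusted p = 0.207 and 0.412, the highest of their alternatives, against lowest values of 0.00105 and 0.00222). LIPA was also not called without CTR replicate 1 or 2 (adjusted p = 0.0552 and 0.0788) or without miR-8485 replicate 2 or 3 (adjusted p = 0.0882 and 0.0794).

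SMPD1, the acid sphingomyelinase that makes the ceramide that ASAH1 splits, went the other way. It was at 5.16, 4.66 and 4.88 FPKM in CTR and at 3.75, 3.22 and 4.01 FPKM in miR-8485, for a log2 fold change of -0.42 (SE 0.09, adjusted p = 0.00583). PSAP, the precursor of the saposins that present lipids to these enzymes, had the highest level of all the lysosomal genes. It was at 243, 232 and 238 FPKM in CTR and at 197, 195 and 200.0 FPKM in miR-8485. This was a difference of 238 ± 5.46 against 198 ± 2.73 FPKM (SD, n = 3 each) without overlap, a log2 fold change of -0.27 (SE 0.04, adjusted p = 7.8e-04). ARSA, which desulfates sulfatide, had a log2 fold change of 0.24 (SE 0.09, adjusted p = 0.0618) with overlapping groups. ARSA passed the threshold in 6 of 19 alternatives, with extremes of 0.0204 and 0.307 for its adjusted p. Among the 6 were CTR replicate 3 left out (0.32, adjusted p = 0.0204) and miR-8485 replicate 2 left out (0.30, adjusted p = 0.0474).

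Of the 6 tested membrane proteins, 2 were called, both lower, and the median log2 fold change was -0.11. The called share was 33.3%, against 59.6% of all tested genes. LAMP2, a heavily glycosylated protein of the lysosomal membrane with a part in autophagy, lies on chromosome X (120427827 to 120469365, hg38). It was at 13.9, 13.8 and 15.9 FPKM in CTR and at 6.11, 5.57 and 6.16 FPKM in miR-8485. The groups were far apart, with a log2 fold change of -1.27 (SE 0.07, adjusted p = 1.1e-05). LAMP1, its close relative, was at 48.6 ± 3.07 FPKM in CTR and 47.7 ± 1.06 in miR-8485 (SD, n = 3 each), with overlapping groups and a log2 fold change of -0.03 (SE 0.05). NPC1, which moves cholesterol out of the lysosome, was at 6.65, 6.93 and 7.44 FPKM in CTR and at 4.16, 4.17 and 4.47 FPKM in miR-8485. Its log2 fold change was -0.70 (SE 0.07, adjusted p = 9.0e-05), while that of its partner NPC2 was 0.24, so the carriers of the same cholesterol route were called in opposite directions on the FPKM as deposited.

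CD63, a tetraspanin of late endosomes and the membrane protein with the highest level, was at 74.6, 72.8 and 78.9 FPKM in CTR and at 82.5, 78.7 and 80.2 FPKM in miR-8485. The CD63 groups overlapped, with a log2 fold change of 0.09 (SE 0.05, adjusted p = 0.111). SCARB2, a protein that spans the membrane, had a log2 fold change of -0.16 and MCOLN1, a calcium channel, one of -0.06, and neither was called. CLN3 was at 0.118, 0.151 and 0.0673 FPKM in CTR and at 0.107, 0.14 and 0.0639 FPKM in miR-8485, from 12 to 27 fragments per library. CLN3 lay below the filter and was not tested for a difference, and 31.1% of its exon bases are shared with other genes in GENCODE release 44.

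Of the transcription factors, TFEB was at 1.69, 1.54 and 1.78 FPKM in CTR and at 2.42, 2.48 and 2.13 FPKM in miR-8485. The groups did not overlap, and the log2 fold change was 0.46 (SE 0.11, adjusted p = 0.00845), on 157 to 253 fragments per library. With the trend against GC content removed, TFEB was no longer called (0.29, adjusted p = 0.0659, with a lowest value of 0.00158 over its alternatives). TFE3 was at 7.54, 7.42 and 7.7 FPKM in CTR and at 8.11, 8.74 and 8.51 FPKM in miR-8485, for a log2 fold change of 0.16 (SE 0.05, adjusted p = 0.0301). The TFE3 groups did not overlap either, but leaving out CTR replicate 1, 2 or 3 (adjusted p = 0.0545, 0.088 and 0.0506) or miR-8485 replicate 2 or 3 (adjusted p = 0.101 and 0.0853) ended its call. Rescaling to TPM (0.046, adjusted p = 0.567) ended it as well, and the lowest adjusted p over its alternatives was 0.0111. The libraries measure mRNA, not where these proteins are in the cell.

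**Figure D3:**
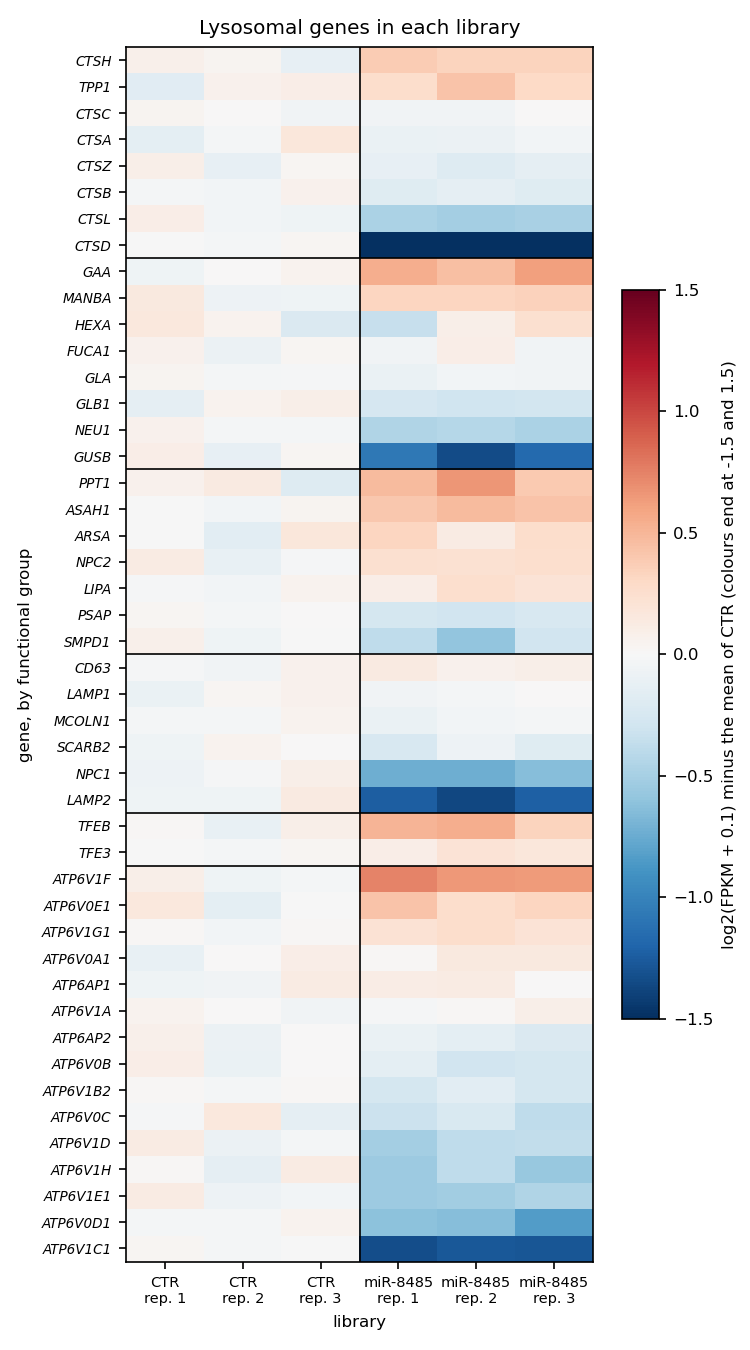
Difference of log2(FPKM + 0.1) from the mean of the CTR libraries for each of the 46 tested lysosomal genes (rows, in functional groups parted by lines) in each of the 6 libraries (columns). Red is higher and blue lower, with colours that end at -1.5 and 1.5, so CTSD (-3.20) is beyond the scale. The 3 miR-8485 columns carry the same sign in all 13 genes called higher and all 18 called lower.

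The V-ATPase subunits were called lower more often than higher, with 8 of 15 lower, 3 higher and a median log2 fold change of -0.23. The called share was 73.3%, against 59.6% of all tested genes (29.1% higher and 30.5% lower). In the V1 sector, 5 of 8 were called lower and 2 higher, and in the V0 sector 3 of 5 lower and 1 higher. ATP6V1C1, the subunit that joins the stator to the rest of the pump and is released when the sectors come apart, fell most. It lies on chromosome 8 (103021063 to 103073051, hg38) and was at 24.3, 23.3 and 23.8 FPKM in CTR and at 9.44, 9.77 and 9.69 FPKM in miR-8485. The libraries of each group were close together and the groups far apart, with a log2 fold change of -1.30 (SE 0.04, adjusted p = 2.2e-06). ATP6V0D1, which couples the membrane rotor to the central stalk and holds the run of TGTGTGT shown above, was at 9.29, 9.27 and 9.78 FPKM in CTR and at 6.12, 6.03 and 5.25 FPKM in miR-8485. The groups did not overlap, with a log2 fold change of -0.70 (SE 0.07, adjusted p = 1.4e-04).

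The subunits that rose were among the shortest genes of the pump. ATP6V1F, of the central stalk, has 789 bases in the table and the highest level of the pump. It was at 96.3, 86.9 and 89.1 FPKM in CTR and at 151, 142 and 141 FPKM in miR-8485. All miR-8485 libraries were above all CTR libraries, with a log2 fold change of 0.67 (SE 0.05, adjusted p = 4.1e-05). ATP6V0E1, a small membrane subunit of 1623 bases in the table, was at 68.2, 55.3 and 60.9 FPKM in CTR and at 82.2, 73.8 and 76.6 FPKM in miR-8485, for a log2 fold change of 0.34 (SE 0.08, adjusted p = 0.00832). ATP6V1G1, of the outer stalk, with 1305 bases in the table, had a log2 fold change of 0.23 (SE 0.04, adjusted p = 0.00226). After rescaling to TPM, ATP6V0E1 (0.22, adjusted p = 0.0689) and ATP6V1G1 (0.11, adjusted p = 0.115) were not called, nor were they with the trend against gene length removed (0.15 and 0.0027, adjusted p = 0.0562 and 0.963). The lowest adjusted p over their alternatives were 1.2e-04 and 2.4e-04. ATP6V1F kept its call in both. ATP6V0C, the proton-carrying ring subunit and likewise a short gene with 1498 bases, went the other way, with -0.31 (SE 0.08, adjusted p = 0.0143).

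On the FPKM as deposited, subunits that pair in the pump were called in opposite directions. Of the central stalk, ATP6V1D had a log2 fold change of -0.42 (SE 0.07, adjusted p = 0.00166) and its partner ATP6V1F one of 0.67. Of the outer stalks, in which each E subunit pairs with a G subunit, ATP6V1E1 had -0.51 (SE 0.06, adjusted p = 3.0e-04) and ATP6V1G1 had 0.23. In the ring that splits ATP, the catalytic ATP6V1A was not called (0.03, SE 0.05) and the regulatory ATP6V1B2 was called lower (-0.23, SE 0.05, adjusted p = 0.00577). ATP6V1H, which links the sectors and holds the free V1 sector silent, was lower by a log2 fold change of -0.50 (SE 0.08, adjusted p = 0.00141).

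Of the other V0 subunits, the ring subunit ATP6V0B had -0.23 (SE 0.07, adjusted p = 0.0161), and ATP6V0A1, which forms the proton path with the ring, had 0.10 and was not called. The calls of ATP6V0B (adjusted p = 0.0575 and 0.0535 without miR-8485 replicate 2 and 3) and ATP6V0C (adjusted p = 0.0504 without miR-8485 replicate 3) each depended on a library, with ranges of 0.00243 to 0.0575 and 0.00179 to 0.0504 over their alternatives. In GENCODE release 44, 76.3% of the exon bases of ATP6V0C are shared with 2 other genes, whose summed mean level was 0.019 FPKM in CTR and 0.00948 in miR-8485. The accessory proteins ATP6AP1 and ATP6AP2 had log2 fold changes of 0.08 and -0.15 and were not called. ATP6AP2 passed in 3 of 19 alternatives, which were rescaling to TPM, a limma test on fragments and CTR replicate 2 left out (-0.20, adjusted p = 0.0406). Its adjusted p had extremes of 0.0122 and 0.658 among the alternatives.

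**Figure D4:**
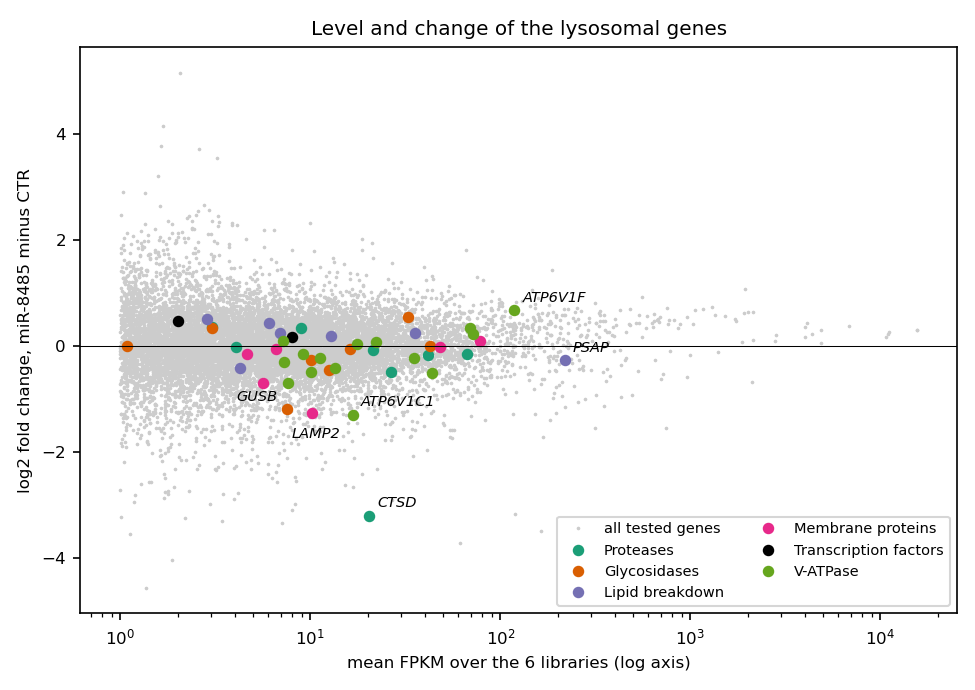
Mean FPKM over the 6 libraries (log axis) against log2 fold change (miR-8485 minus CTR) of 12349 tested genes in grey and the 46 tested lysosomal genes in the colours of their functional groups. The lysosomal genes lie between 1.08 and 218 FPKM and, apart from CTSD at -3.20, between -1.30 and 0.67.

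The mean level of the tested lysosomal genes had a median of 11.9 FPKM, against 6.09 FPKM over all tested genes. Every tested one had at least 157 fragments in each library. The median absolute log2 fold change was 0.27, against 0.33 over all tested genes. Leaving out CTSD kept the median log2 fold change at -0.06.

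The wider pathway was read from 115 further genes with a row, of which 96 were tested, and 32 were called higher and 27 lower, with a median log2 fold change of 0.05. The called genes made up 61.5%, near the 59.6% of all tested genes (29.1% higher and 30.5% lower). After rescaling to TPM, 24 were called higher and 35 lower, so that 40.7% of the calls were higher. Over all tested genes the higher share of the calls fell as well, from 48.8% to 35.6%. Of 30 other hydrolases and their activators, 9 were called higher and 13 lower, together 73.3% against the same 59.6%. IDUA, which trims heparan and dermatan sulfate, was at 4.76, 4.31 and 4.14 FPKM in CTR and at 11.2, 9.03 and 10.1 FPKM in miR-8485, for a log2 fold change of 1.18 (SE 0.09, adjusted p = 3.7e-05).

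Of 21 other lysosomal membrane proteins, 10 were called higher and 5 lower, together 71.4%, where 59.6% of all tested genes were called. LAMP3, a relative of LAMP1 and LAMP2, fell most, from 1.61, 1.51 and 1.82 FPKM to 0.35, 0.609 and 0.523 FPKM, a log2 fold change of -1.58 (SE 0.25, adjusted p = 0.0011), from 104 to 126 fragments per CTR library to 24 to 42 per miR-8485 library. Of 15 other V-ATPase subunits and assembly or regulatory factors, 3 were called higher and 2 lower (33.3% called). Of 15 genes that tag and sort lysosomal enzymes, 5 were called higher and 5 lower (66.7%). Of 15 genes that sense nutrients at the lysosome, which include the Rag GTPases and their anchor, 5 were called higher and 2 lower (46.7%). Each list held genes called in both directions.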

How the data were processed

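The values used were FPKM, deposited by the authors: reads trimmed with fastp, mapped to hg38 with HISAT2 2.0.5 and counted per gene with featureCounts 1.5.0-p3 (versions from the submitters' processing notes). The annotation release is not given in the sources used here. Samples were grouped by their labels, and the number of value columns that no sample could be given was 0. In every library 100% of the values above 0 were whole multiples of 1 fragment, within 0.1 of a fragment, which gave the fragments per gene.

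Log2(FPKM + 0.1) was tested with limma 3.58.1 (R 4.3.3) with a variance trend, two-sided, over the 12349 of 31768 genes above 0 whose mean FPKM was 1 or more, with Benjamini-Hochberg adjustment over all of them. A fold change on this scale understates the change of low genes. In simulated libraries limma recovered 184 of 197 genes changed by 0.8 on the log2 scale, with 8 false calls among 12289. Far fewer genes were changed there than were called in the data (59.6%). Most called lysosomal genes changed by less than 0.8, so these rates do not carry over to their calls. Other steps used Python 3.11.15, pandas 2.3.3 and matplotlib 3.10.9. Sequence features came from GENCODE release 44 and RefSeq. Of the 58207 listed genes found in GENCODE release 44, 58192 overlapped it on hg38.

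The lysosomal genes, the further pathway genes and the lists were chosen with earlier results of these data known. Values per library are given for the 2 largest called rises and falls without overlap in each functional group, the member of each group with the highest level, TFEB, TFE3, CLN3 and, outside the 47 genes, the 2 largest rises and falls, of which some are not reported here. The other genes were named with summary values after these were seen. Of the further pathway symbols, 2 are aliases of others in the list. Alternatives were other pseudocounts, filters, scalings, thresholds and tests, trends against length and GC content removed, and each library left out.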

Additional observations from a re-analysis of the deposited data

How the results depend on the processing

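Under 19 alternatives, 19 of the 31 called lysosomal genes kept direction and call in every one they were tested in (18 for CTSH, SMPD1 and PPT1, which lay below the filter on a mean FPKM of 5), 12 lost the call at least once and 0 changed sign. The number called higher, 13, became 7 after rescaling to TPM and 8 at an adjusted p under 0.01, where 14 were called lower. Over all 12349 tested genes the counts moved as well, from 3593 higher and 3769 lower. They became 2613 and 4725 after rescaling to TPM, and 2609 and 2878 at an adjusted p under 0.01. Among the further pathway genes, 15 instead of 27 were called lower with a mean FPKM of at least 5, which tests fewer genes. Of all 6878 genes tested there, 2417 were called lower. With a library left out, 11 to 13 lysosomal genes were called higher and 15 to 20 lower, and 29 to 31 and 21 to 29 of the pathway genes. Over all tested genes, 3124 to 3561 were then called higher and 3382 to 3663 lower. With the replicate number as a block, 13 lysosomal genes were called higher and 19 lower, and TFE3 was not called (0.16, adjusted p = 0.0508) while CTSZ (-0.15, adjusted p = 0.0292) and ARSA (0.24, adjusted p = 0.0267) were. Over all tested genes the block gave 3634 called higher and 3754 lower. Same-numbered libraries correlated at 0.067, 0.033 and -0.064 in their deviations, and not every library correlated best with its own number. The labels give only a replicate number. Correlations from 3 libraries a group cannot show whether same-numbered libraries were prepared together.

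Of the 15 genes not called, 8 passed the threshold in at least 1 alternative and 10 changed sign in at least 1. The sign changes under TPM were CD63 (-0.021), ATP6V0A1 (-0.0097), ATP6V1A (-0.087) and ATP6AP1 (-0.035). HEXA gave 0.00049 with a pseudocount of 1, 0.0054 with median-of-ratios scaling, 0.13 with the length trend removed and 0.01 with voom on recovered fragments. FUCA1 gave 0.009, 0.032 and 0.0086 with median-of-ratios scaling, quantile normalization and voom. With quantile normalization and with the length trend removed, CTSC gave 0.011 and 0.099 and LAMP1 gave 0.0047 and 0.017. SCARB2 gave 0.0058 with the length trend removed. With a library left out, HEXA ranged from -0.13 to 0.16, FUCA1 from -0.053 to 0.032, CTSA from -0.15 to 0.0097 and LAMP1 from -0.078 to 0.009. The cause was not tested. CLN3 was at most 27 fragments in any library, which limits what depth can show for it.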
